A study of Homo sapiens with 24 samples.

Results

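Of the 20345 genes in the count table, 39 belong to homologous recombination and the Fanconi anemia pathway. They were taken as a list of symbols, by a rule that uses no measured value but with earlier results of these data known, and found by the Ensembl gene ID that the Gencode annotation of hg19 gives for each symbol. All 39 were in the table, all are protein-coding, and all passed the filter on low counts in each comparison. The cells were labelled A2058, an established human melanoma line. They received a control siRNA (siCTRL) or an siRNA against LSM14A (siLSM14A), an RNA-binding protein of P-bodies, and were left untreated (NT) or given hydroxyurea (HU) at 10 mM for 2 h. HU starves replication of deoxynucleotides by inhibiting ribonucleotide reductase. Each of these 4 conditions had 3 replicate cultures. Total RNA and polysomal RNA were sequenced from every culture, 1 library each. Polysomal RNA came from the heavy fractions of a sucrose gradient, which collect mRNAs bound by many ribosomes. The comparison addresses which mRNAs depend on LSM14A for their level or their translation under replication stress. It is limited to 1 cell line and a transient knockdown, and a bulk library cannot tell fewer expressing cells from less RNA per cell.

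Homologous recombination repairs broken DNA by copying an intact sister. The ends are first cut back to single strands, mediators then load the recombinase filament, motor proteins remodel the joined molecules, and dissolution or nuclease cutting separates them. The Fanconi anemia pathway acts on crosslinked DNA and on stalled forks: a core complex ubiquitinates the FANCD2 and FANCI clamp, which calls in nucleases and recombination. Cells whose recombination or Fanconi genes are lost are sensitive to crosslinking drugs and to replication stress such as that caused by HU.

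The libraries held 24789280 to 40645263 counts for total RNA and 28776634 to 44897501 for polysomal RNA. A member had 120 to 5518 counts in a total RNA library (median 779) and 52 to 7149 in a polysomal library (median 562). The targeted mRNA, LSM14A, fell in total RNA, with a log2 change of -3.49 in untreated siLSM14A cells (SE 0.075, edgeR adjusted p = 1.91e-09) and of -3.67 upon HU (SE 0.0871, edgeR adjusted p = 8.41e-11). The melanoma lineage gene SOX10 stood at 550 to 666 CPM (counts scaled to library size) over the 12 total RNA libraries, while the epithelial gene KRT5 had 0 counts in all 12. Among pigment genes DCT stood at 653 to 912 CPM and PMEL at 306 to 381 CPM. MITF and TYR stood at 115 to 131 and 70.3 to 86.4 CPM. The pigment genes MLANA and TYRP1 were low, at 5.48 to 10.2 and 3.92 to 5.48 CPM. Of the dedifferentiation genes, AXL stood at 160 to 208, NGFR at 38.5 to 56.8 and WNT5A at 0.121 to 0.456 CPM. The epithelial gene KRT14 and the fibroblast genes COL1A1, PDGFRB and DCN had counts in all 12 libraries, at 0.957 to 2.83 CPM.

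The members differed in how much of their RNA was polysomal. FANCD2, FANCG and FANCA were the members with the highest ratio of polysomal to total RNA, and XRCC2, RBBP8 and PALB2 those with the lowest. Their coding sequences are shown because the ratio went with base composition, described further on. Each line is the 90 bases around the middle of the coding sequence in the canonical Gencode transcript, on the coding strand and read on hg19, with G and C at the third codon position in capitals. The FANCD2 window covers codons 711 to 740 in exons 23 and 24 of 44 (chr3:10106522-10107129, plus strand), the FANCG window codons 297 to 326 in exons 7 and 8 of 14 (chr9:35076527-35076756, minus strand), and the FANCA window codons 713 to 742 in exons 23 to 25 of 43 (chr16:89836664-89838100, minus strand). These 3 spans include introns, which are left out of the sequence. The XRCC2 window lies in exon 3 of 3 (codons 126 to 155, chr7:152346105-152346194, minus strand), the RBBP8 window in exon 11 of 19 (codons 434 to 463, chr18:20573090-20573179, plus strand), and the PALB2 window in exon 5 of 13 (codons 579 to 608, chr16:23641651-23641740, minus strand).
FANCD2: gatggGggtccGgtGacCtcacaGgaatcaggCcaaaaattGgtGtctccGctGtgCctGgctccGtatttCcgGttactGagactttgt
FANCG: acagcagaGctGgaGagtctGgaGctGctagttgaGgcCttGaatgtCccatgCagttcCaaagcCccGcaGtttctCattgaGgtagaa
FANCA: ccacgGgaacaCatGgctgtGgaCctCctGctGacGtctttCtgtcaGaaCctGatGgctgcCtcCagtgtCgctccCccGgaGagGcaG
XRCC2: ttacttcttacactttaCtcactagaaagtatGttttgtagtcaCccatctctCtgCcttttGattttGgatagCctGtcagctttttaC
RBBP8: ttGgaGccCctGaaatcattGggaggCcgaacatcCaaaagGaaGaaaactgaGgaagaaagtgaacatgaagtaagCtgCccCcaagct
PALB2: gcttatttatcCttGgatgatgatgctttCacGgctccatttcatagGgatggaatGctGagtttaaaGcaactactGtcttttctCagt
Of the 30 codons in each window, 16 end in G or C in FANCD2, 17 in FANCG and 22 in FANCA, against 10 in XRCC2, 13 in RBBP8 and 10 in PALB2. Over the whole coding sequence this share is 47.5% in FANCD2, 60.5% in FANCG and 63.2% in FANCA, against 34.6% in XRCC2, 31.2% in RBBP8 and 35.3% in PALB2.

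In total RNA the members were steady. TOP3A, the topoisomerase of the dissolution complex, and FANCI were the most abundant, with 106 to 126 and 99.0 to 120 CPM over the 12 libraries. The fewest reads came from RAD54B (3.32 to 5.56 CPM), a motor protein gene of whose exonic bases only 33.99% are free of overlap with a same-strand gene. Per length of transcript, the 12-culture mean of total RNA ran from 0.786 CPM per kb for the paralog RAD51D and 0.831 for BRCA2 to 18.7 for RBBP8 and 22.6 for FANCI. The RAD51D value divides a mean of 7.83 CPM by an annotated transcript of 9966 bases, of which 984 are coding. EXO1 varied least, with 48.0 to 51.2 CPM. Within a condition the standard deviation between cultures had a median over the members of 0.10 on the log2 scale in total RNA and 0.274 in polysomal RNA, close to the 0.103 and 0.253 of all genes tested. In all 39 members the polysomal spread was the larger. It was wider in the 26 members whose exons hold under 45% GC (median SD 0.363) than in the other 13 (0.177), whereas in total RNA the medians were 0.106 and 0.10.

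**Figure D1:**
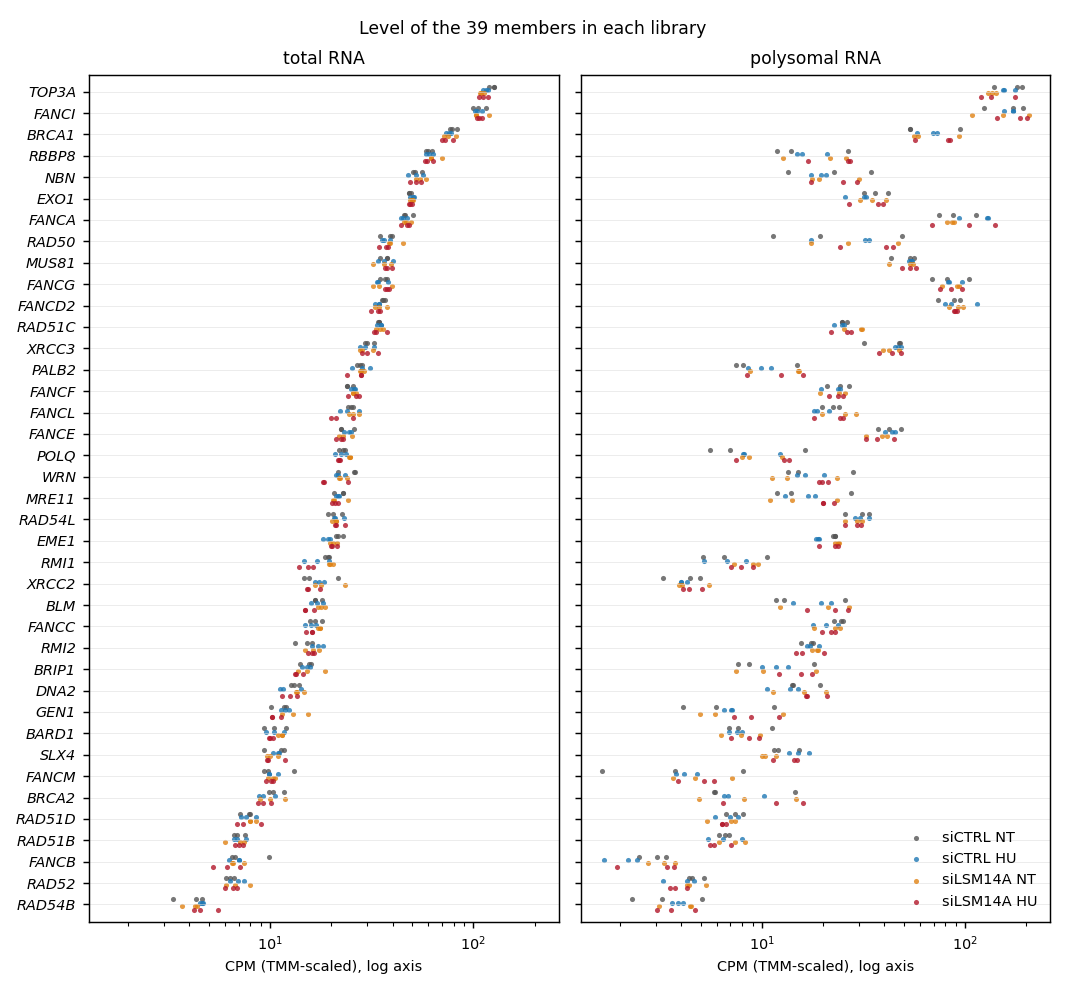
Level of each member in each library, as TMM-scaled CPM on a log axis, for total RNA (left) and polysomal RNA (right), 1 point per library, coloured by condition and ordered by the mean in total RNA. The points of a member lie close together in total RNA and spread further in polysomal RNA, where RBBP8 falls below and FANCD2 rises above its total RNA level.

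Polysomal and total RNA were then compared within each condition, which gives the polysome loading of each mRNA relative to the typical gene of the same libraries. In untreated siCTRL cells 10 members were higher in polysomal RNA (25.6% of the 39, where 31.4% of the 12431 genes tested were) and 11 lower (28.2%, against 32.3% of all genes). In siCTRL cells with HU 11 were higher (28.2%, against 36.2% of 12479 genes) and 17 lower (43.6%, against 37.4%). In untreated siLSM14A cells 9 were higher (23.1%, against 32.1% of 12528 genes) and 11 lower (28.2%, against 32.3%), and in siLSM14A cells with HU 13 were higher (33.3%, against 32.8% of 12377 genes) and 11 lower (28.2%, against 34.1%). These calls were made at an adjusted p under 0.05 by edgeR's quasi-likelihood test. The members' shares lay near those of all genes. Their median log2 ratio over the 12 cultures was -0.20, against -0.07 for all genes. Of the 39, 9 were higher in all 4 conditions, 10 were lower in all 4, 11 were called in 1 to 3 conditions, 9 were called in none, and 0 were higher in some conditions and lower in others. The share of all genes called alike in all 4 conditions was not counted.

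The ratio is set by the normalization: without a correction for composition, which moved the median of all genes from between -0.03 and -0.05 to between -0.33 and -0.45, the calls became 4 higher and 16 lower, 5 and 26, 4 and 17, and 5 and 17 in the order above, and only FANCA, FANCD2, FANCE and FANCG stayed higher in all 4 conditions. Single cultures also moved them. In untreated siCTRL cells the counts were 7 higher and 6 lower without replicate 1, 5 and 5 without replicate 2, and 10 and 19 without replicate 3. In untreated siLSM14A cells they were 7 and 18 without replicate 1, 8 and 7 without replicate 2, and 4 and 7 without replicate 3, and in siLSM14A cells with HU 7 and 9 without replicate 1. No share of all genes stands beside the counts without the composition correction or without a culture. They are not read as a trait of the members.

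The Fanconi genes held the 5 highest ratios of all members. With the GC correction the 5 highest were FANCD2, FANCI, DNA2, BRCA2 and BLM, and FANCE was called in 1 condition. FANCD2, the clamp subunit that is ubiquitinated, had log2 ratios of 1.27, 1.04 and 1.41 in the 3 untreated siCTRL cultures, 1.39, 1.73 and 1.21 with HU, 1.51, 1.35 and 1.29 in untreated siLSM14A cells, and 1.5, 1.38 and 1.39 with HU. The lowest of the 12 is 1.04, and the 4 conditions overlap. Its fitted difference was 1.24 to 1.47 over the conditions (SE 0.088 to 0.139, edgeR adjusted p from 8.59e-06 to 0.000271). The mean of its 12 ratios lay at percentile 97.3 of all genes. A pseudogene, FANCD2P2, lies on the same chromosome, and how reads shared with it were counted is not given in the sources used here. Pseudogenes of RBBP8, RAD52, MRE11 and BRCA1 are annotated as well, with the same limit on shared reads. FANCI, the partner of FANCD2 in the clamp, was higher by 0.54 to 0.73 in the 4 conditions, with a largest adjusted p of 0.0485 in untreated siLSM14A cells (edgeR). That call was lost without replicate 1 (0.23, adjusted p = 0.28) and without replicate 3 of that condition (0.62, adjusted p = 0.151).

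Within the core complex the modules did not share 1 level. FANCA and FANCG, which bind each other, were both high. FANCG had ratios of 1.15, 1.59 and 0.87 in untreated siCTRL cells, 1.13, 1.54 and 1.26 with HU, 0.95, 1.44 and 1.51 in untreated siLSM14A cells, and 1.20, 1.32 and 1.00 with HU. FANCA ranged from 0.64 to 1.56 over the 12 cultures (median 0.99). Both were called higher in each condition, FANCG by 1.18 to 1.32 and FANCA by 0.88 to 1.38 (largest edgeR adjusted p 0.000516 and 0.00158). In the module of FANCC, FANCE and FANCF, FANCE was higher in all 4 conditions (0.71 to 0.86), FANCC in 3 (0.34 to 0.52 over the 4), and FANCF, at -0.17 to -0.03, in none. FANCL, the ubiquitin ligase, and FANCB, its partner, differed. FANCL lay near 0, with ratios from -0.56 to 0.29, and was called lower only in siCTRL cells with HU (-0.33, edgeR adjusted p = 0.0408).
FANCB, an X-linked gene, was low throughout. Its ratios were -1.68, -1.38 and -0.98 in untreated siCTRL cells, -1.68, -1.91 and -1.52 with HU, -0.81, -0.97 and -1.44 in untreated siLSM14A cells, and -0.72, -1.42 and -1.06 with HU. Its 12 values do not overlap those of FANCL or FANCA. The difference was -1.69 to -1.02 (SE 0.171 to 0.241, largest edgeR adjusted p 0.00533). With the GC correction FANCB was called lower in 1 condition. As few as 52 polysomal counts lay behind a culture's value.
FANCM, the translocase that anchors the core complex to DNA, was lower in all 4 conditions (-1.29 to -0.96, largest edgeR adjusted p 0.0361), and in 1 with the GC correction. In untreated siCTRL cells its 3 ratios were -3.00, -1.39 and -0.22, the widest spread of any member in any condition.

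Of the genes that sense and resect broken ends, RBBP8 and NBN were low and the others lay nearer to 0. RBBP8, which encodes CtIP, the factor that starts resection, had ratios of -2.40, -2.10 and -1.13 in untreated siCTRL cells, -1.96, -1.94 and -1.60 with HU, -1.26, -1.50 and -2.45 in untreated siLSM14A cells, and -1.12, -1.81 and -1.22 with HU. Every culture lay at or below -1.12. The fitted difference was -1.81 to -1.35 (SE 0.141 to 0.277, largest edgeR adjusted p 0.000924).
NBN, the subunit of the MRE11, RAD50 and NBN complex that recruits the ATM kinase, ranged from -2.05 to -0.59 and was lower in all 4 conditions (-1.43 to -1.11, largest edgeR adjusted p 0.00739). With the GC correction NBN was called lower in 3. MRE11, the nuclease of the same complex, ranged from -0.95 to 0.26 and was called lower only in siCTRL cells with HU (-0.41, edgeR adjusted p = 0.0231). RAD50, its ATPase, ranged from -1.78 to 0.30 and was called in no condition, but only 23.1% of its exonic bases are free of overlap with a same-strand gene. For long-range resection, EXO1 was lower in all 4 conditions (-0.74 to -0.41), whereas DNA2 was called once, higher in siLSM14A cells with HU (0.52, edgeR adjusted p = 0.00751). With the GC correction EXO1 was called in 0 conditions and DNA2 higher in all 4.

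Among the mediators, PALB2 stood apart from the proteins it connects. PALB2 bridges BRCA1 and BRCA2, and its ratios were -1.78, -1.84 and -0.92 in untreated siCTRL cells, -1.56, -1.34 and -1.63 with HU, -0.88, -0.94 and -1.66 in untreated siLSM14A cells, and -0.94, -1.72 and -0.81 with HU. It was lower in each condition (-1.499 to -1.10, SE 0.141 to 0.249, largest edgeR adjusted p 0.00166). BRCA1 ranged from -0.64 to 0.39 over the cultures and BRCA2 from -1.27 to 0.80, and neither was called in any condition (edgeR adjusted p from 0.196 to 0.95 and from 0.20 to 0.754). The intervals behind these 2 genes are wide, with an SE of up to 0.217 for BRCA1 and 0.338 for BRCA2. With the GC correction BRCA1 and BRCA2 were each called higher in 3 conditions. BARD1, the partner of BRCA1 in its ubiquitin ligase, was called lower in 2 conditions, siCTRL with HU and untreated siLSM14A, at -0.49 to -0.25 over the 4. RAD52, which anneals single strands, was lower in all 4 conditions (-0.76 to -0.43).

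The paralogs that assist the recombinase ran from the lowest ratio of all members to one above 0. XRCC2 was the lowest member of all, with ratios of -2.72, -1.81 and -1.56 in untreated siCTRL cells, -2.09, -2.11 and -2.05 with HU, -1.58, -2.13 and -2.58 in untreated siLSM14A cells, and -2.00, -1.91 and -1.59 with HU. Every culture lay at or below -1.56. Its fitted difference was -2.07 to -1.83 (SE 0.133 to 0.215, edgeR adjusted p from 2.68e-06 to 0.000313). The mean of its 12 ratios lay at percentile 1.52 of all genes. The other subunits of its complex were closer to 0: RAD51B and RAD51D were called in no condition (-0.20 to 0.11 and -0.28 to -0.05), and RAD51C was lower in 3 (-0.50 to -0.23).
XRCC3, the partner of RAD51C in a separate complex, was higher in all 4 conditions (0.47 to 0.66, largest edgeR adjusted p 0.0362), with 12 ratios between 0.11 and 0.75, but with a correction for GC content it was called lower in 3.

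The motor and dissolution genes were split as well. RAD54L was higher in all 4 conditions (0.39 to 0.54), while RAD54B ranged from -0.64 to 0.28 and was called in none. With the GC correction RAD54L was called in 0 conditions and RAD54B higher in 2. The helicase genes lay near 0. BLM was called higher in 1 condition, siLSM14A with HU (0.52, edgeR adjusted p = 0.0231), and WRN and BRIP1 were called lower in 1, siCTRL with HU (-0.36 in both). Their differences were as large or larger in both untreated conditions, where the SE was wider (WRN -0.39 and -0.47, BRIP1 -0.42 and -0.38). BLM acts with TOP3A, RMI1 and RMI2 to dissolve joined molecules. TOP3A was higher in all 4 conditions (0.32 to 0.50, largest edgeR adjusted p 0.0429). With the culture as a block its call in untreated siLSM14A cells was lost (0.32, edgeR adjusted p = 0.0698), and with the GC correction it was called in 0 conditions. RMI2 lay at 0.06 to 0.21 and was called in none. RMI1 was lower in all 4 (-1.38 to -0.93, largest edgeR adjusted p 0.00163). The 12 ratios of RMI1 lay between -1.91 and -0.82 and those of TOP3A between 0.17 and 0.59, so these 2 partners did not overlap, while BLM and RMI2 overlapped TOP3A. The exons of RMI1 hold 34.9% GC and those of TOP3A 52.0%. Both means lay within the quartiles of all genes of like GC content. With the GC correction RMI1 was called lower in 1 condition.
Of the nuclease genes that cut joined molecules, MUS81 was higher in all 4 conditions (0.47 to 0.57) and its partner EME1 in none (-0.01 to 0.22). The GC correction turned MUS81 to below 0 in all 4 conditions, and it was then called lower in both siCTRL conditions (-0.24 and -0.30). SLX4, the scaffold that holds MUS81, was higher in both conditions with HU, by 0.51 in siCTRL and 0.37 in siLSM14A cells (edgeR adjusted p = 0.00509 and 0.0463). SLX4 had a mean ratio of 0.25 in untreated siCTRL and 0.07 in untreated siLSM14A cells. The change of its ratio with HU had an edgeR unadjusted p of 0.253 in siCTRL and 0.142 in siLSM14A cells. With the GC correction SLX4 was called lower in untreated siLSM14A cells (-0.49, edgeR adjusted p = 0.0106). GEN1, the resolvase, was lower in siCTRL cells with HU (-0.77, edgeR adjusted p = 0.000309). It was not called in untreated siCTRL (-0.67, SE 0.326) or siLSM14A cells (-0.73, SE 0.321), where the difference was of like size with a wider error, nor in siLSM14A cells with HU (-0.17). POLQ, the polymerase of the error-prone end joining that competes with recombination, was lower in all 4 conditions (-1.31 to -0.94, largest edgeR adjusted p 0.0129).

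**Figure D2:**
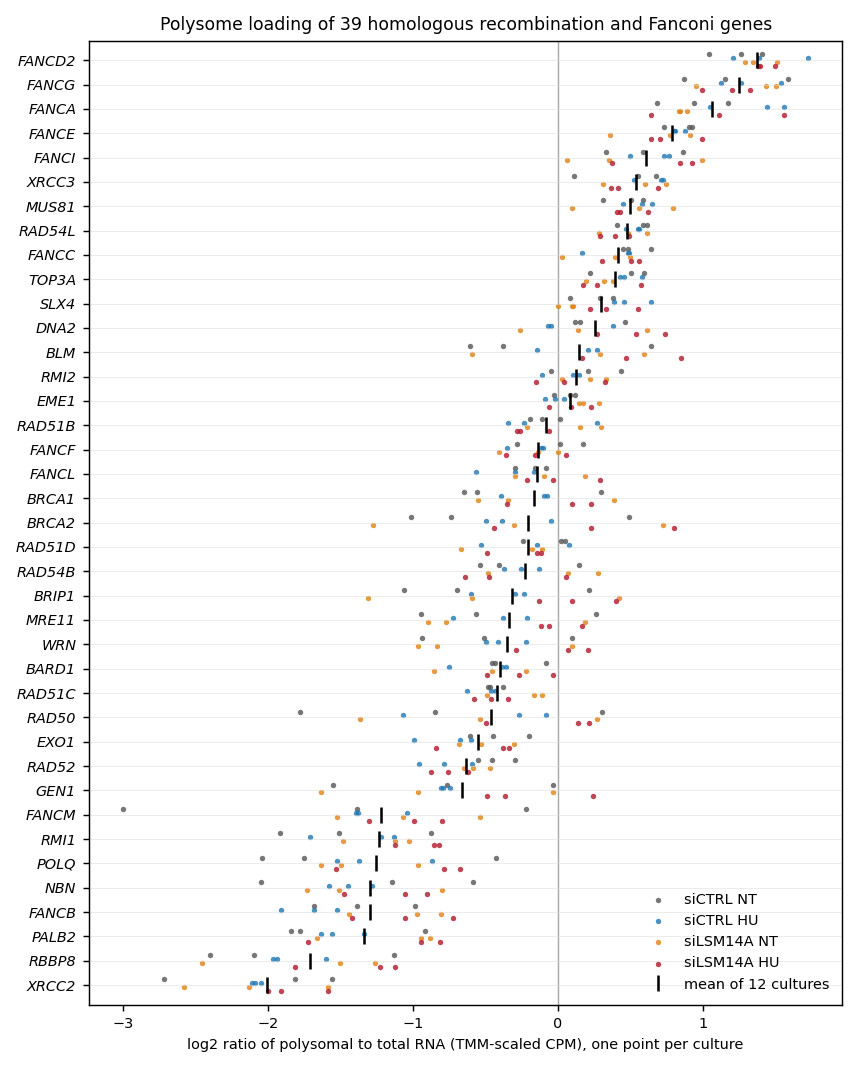
Log2 ratio of polysomal to total RNA in each of the 12 cultures (x axis) for the 39 members, ordered by their mean (black bar) and coloured by condition. FANCD2, FANCG and FANCA lie at 0.64 or above in every culture, and 12 members lie below 0 in every culture.

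Polysome loading went with base composition. Across the 39 members, which share libraries and are not independent replicates, the mean log2 ratio was correlated with the GC content of the exons (Pearson 0.649, Spearman 0.676). Across all 12798 genes these were 0.665 and 0.694, and across the 47 other pathway genes 0.707 and 0.665. With the share of codons ending in G or C the members gave 0.629 and 0.707. With coding length the Spearman correlation was -0.04 over the members. The 9 members higher in all 4 conditions had a median GC content of 55.4% (43.4% to 62.8%), and the 10 lower in all 4 a median of 40.3% (34.9% to 47.9%).
Not all members followed this order. Against the quartiles of all genes in bins of 2 points of GC, 12 members lay above, 4 below and 23 within. FANCD2 lay farthest above, with a mean ratio of 1.37 against a bin median of -0.37. DNA2 (0.25 against -0.91) and FANCI (0.61 against -0.52) came next, then BLM, BRCA2, FANCG, RAD54B, FANCA, FANCL, BARD1, BRCA1 and BRIP1. Those below were XRCC2 (-2.01 against -0.65), RBBP8, PALB2 and POLQ. With each library corrected for its GC trend, which also removes any real dependence of loading on GC, FANCA, FANCD2, FANCG and FANCI stayed higher in all 4 conditions, and PALB2, XRCC2, RAD52, RBBP8 and POLQ stayed lower. DNA2 and FANCL were then higher in all 4, and 8 members were called in the direction opposite to their uncorrected call in at least 1 condition (BARD1, XRCC3, MRE11, WRN, BRIP1, FANCL, SLX4 and MUS81). The corrected counts were 8 higher and 8 lower in untreated siCTRL cells, 15 and 9 with HU, 10 and 7 in untreated siLSM14A cells, and 16 and 8 with HU. No share of all genes is set beside these counts, so their differences are not read as a trait of the members.

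**Figure D3:**
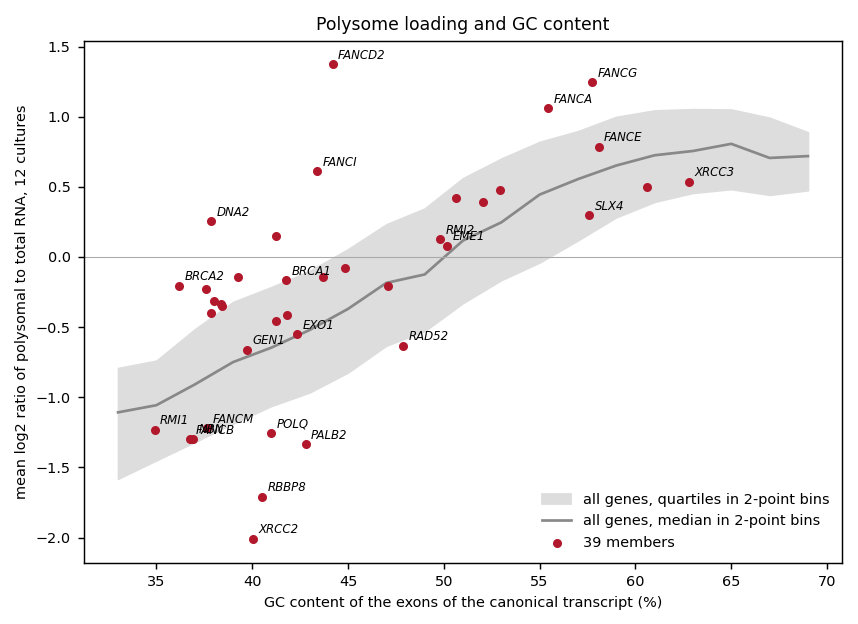
Mean log2 ratio of polysomal to total RNA over 12 cultures (y axis) against the GC content of the exons (x axis) for the 39 members (red), with the median and quartiles of all genes in bins of 2 points of GC (grey). The members follow the rise of the grey band, with 12 members above it, FANCD2, DNA2 and FANCI farthest, and XRCC2, RBBP8, PALB2 and POLQ below it.

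The same property differed between polysomal libraries of 1 condition. The slope of a gene's log2 level on GC content ran from -0.278 to 0.242 per 10 points of GC over the 12 polysomal libraries and from -0.101 to 0.060 over the total RNA libraries. It was lowest in replicate 3 of untreated siCTRL cells (-0.278), replicate 1 of untreated siLSM14A cells (-0.275) and replicate 3 of siLSM14A cells with HU (-0.209). The first of these had the highest ratio of its condition in 24 of the 26 members under 45% GC and in 2 of the other 13, and the second in 25 of 26 and 1 of 13. The third had it in 7 of 26 and 3 of 13. BRCA2, with 36.2% GC, shows the pattern: its ratio was 0.49 in replicate 3 of untreated siCTRL cells and -1.01 and -0.74 in the others, and 0.72 in replicate 1 of untreated siLSM14A cells and -0.30 and -1.27 in the others. The part of these slopes in the comparisons between conditions below was not tested beyond the GC correction and the fits without these cultures.

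The effect of LSM14A knockdown on the level of the members' RNA was compared next. In total RNA of untreated cells, 0 of 39 members passed an adjusted p under 0.05 (edgeR's quasi-likelihood test, 0.566% of 12544 genes called), and 1 had an unadjusted p under 0.05, in the lower direction (5.13% of genes). That member was TOP3A, at 126, 126 and 119 CPM in siCTRL and 108, 113 and 110 CPM in siLSM14A cultures. The groups did not overlap, but the change was small (-0.17, SE 0.0503, adjusted p = 0.243). With HU, 0 members passed (0.802% of 12475 genes called) and 0 had an unadjusted p under 0.05 (8.54% of genes). The member changes lay between -0.18 and 0.10, with FANCE (-0.14, edgeR unadjusted p = 0.0617) closest. Replicate numbers paired these libraries, and with the number as a block 7 members had an unadjusted p under 0.05, all lower in siLSM14A cells (17.9% of members, where 9.84% of all genes were lower and 19.1% moved in either direction), and 0 passed the adjustment.
In polysomal RNA, 0 members passed in untreated cells (0.0162% of 12342 genes called; 0 unadjusted, 1.96% of genes) and 0 with HU (0.0653% of 12256 genes called). Without replicate 3 of untreated siCTRL cells 8 were unadjusted in untreated cells, 7 of them higher (1.95% of all genes were higher). With HU 1 was unadjusted higher (3.29% of genes), DNA2, with 15.1, 10.6 and 13.8 CPM in siCTRL and 16.7, 20.9 and 16.4 CPM in siLSM14A cultures (0.45, SE 0.188, edgeR adjusted p = 0.739). This count was 12 without replicate 2 of siLSM14A with HU, 11 of them higher (11.6% of all genes were higher). Of siCTRL with HU, it was 4 without replicate 3, all higher (11.4% of all genes were). It was 2 without replicate 1, all higher (1.79%), and 0 without replicate 2 (0.981% of all genes were higher). DESeq2 gave 0 adjusted calls in each of these 4 comparisons, and 1, 0, 0 and 4 unadjusted ones (8.68%, 7.17%, 1.77% and 5.15% of all genes). The 4 were all higher in siLSM14A cells, as were 3.6% of all genes.

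HU and NT cultures were then compared separately for siCTRL and siLSM14A. In total RNA of siCTRL cells 0 members passed (edgeR, 0% of 12506 genes called) and 2 had an unadjusted p under 0.05 (1.44% of genes): EME1 with -0.19 (SE 0.0729) and RMI2 with 0.21 (SE 0.092), both with an adjusted p of 1.00. EME1 stood at 22.8, 21.6 and 21.1 CPM without and 19.3, 18.2 and 19.6 CPM with HU, and the groups did not overlap. Replicate numbers paired the siCTRL libraries, and with the number as a block 4 members had an unadjusted p under 0.05 (1 higher, 3 lower, where 4.01% of all genes had one), and 0 passed the adjustment. Without replicate 2 of siCTRL with HU, the unblocked count of 2 became 0 (1.12% of all genes), and without replicate 1 of untreated siCTRL it became 1 (2.61%).
In siLSM14A cells 0 passed (edgeR, 0% of 12497 genes called), and 7 had an unadjusted p under 0.05, all lower with HU (3.59% of genes were lower at this threshold). They were RMI1, GEN1, POLQ, BLM, FANCL, XRCC2 and RAD50, with an adjusted p of 0.855 each. RMI1 stood at 19.4, 19.8 and 20.3 CPM without and 13.9, 15.3 and 16.3 CPM with HU, a difference of -0.39 (SE 0.0817, edgeR unadjusted p = 0.00039). The 3 treated cultures lay below the 3 untreated ones. In siCTRL cells RMI1 stood at 19.3, 18.6 and 19.5 CPM without and 14.7, 16.9 and 19.4 CPM with HU (-0.16, edgeR unadjusted p = 0.129). The difference between these 2 responses was -0.23 (SE 0.129, edgeR unadjusted p = 0.0933). GEN1 followed with 12.9, 11.5 and 15.4 CPM without and 10.3, 10.2 and 11.4 CPM with HU (-0.33, SE 0.114, edgeR unadjusted p = 0.0133), and POLQ with 24.7, 24.5 and 24.8 against 21.7, 21.5 and 22.1 CPM (-0.19, SE 0.0657, edgeR unadjusted p = 0.0149). With the GC correction the edgeR unadjusted p of RMI1 was 0.0015, that of GEN1 0.0272 and that of POLQ 0.0597. It was 0.0311 for BLM, 0.103 for FANCL, 0.106 for XRCC2 and 0.102 for RAD50. Of all members 5 were then lower at this threshold (1.78% of all genes) and 1 higher (1.3%). In one fit of all 24 libraries 0 members had an unadjusted p under 0.05 (0.537% of all genes). The median change of the 39 members was -0.07, with 29 below 0. The count of 7 became 3 without replicate 3 of untreated siLSM14A cells (3.06% of all genes lower) and 2 without replicate 2 of siLSM14A cells with HU (1.92%).
In polysomal RNA, 0 members passed and 0 had an unadjusted p under 0.05 in siCTRL cells (edgeR, 0% of 12315 genes called, 2.1% unadjusted) or in siLSM14A cells (0% of 12290 genes called, 0.871% unadjusted). With the paired replicate number as a block 2 members had an unadjusted p under 0.05 in siCTRL cells (10.3% of all genes). Without replicate 3 of untreated siCTRL cells 4 did, all higher with HU (1.81% of all genes), and without replicate 1 of untreated siLSM14A cells 7 did in siLSM14A cells, all higher (7.05% of all genes). The smallest p-values were those of FANCB in siCTRL cells (-0.50, SE 0.263, edgeR unadjusted p = 0.0776) and SLX4 in siLSM14A cells (0.33, SE 0.184, edgeR unadjusted p = 0.10). DESeq2 gave 0 adjusted calls in these 4 comparisons, and 2, 7, 0 and 0 unadjusted ones (0.768%, 4.12%, 2.22% and 0.993% of all genes). The 7 were all lower with HU, as were 2.79% of all genes.

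Translation efficiency (TE), the level in polysomal RNA relative to total RNA, was compared between conditions as the interaction of fraction and condition. This fit held no term for the culture, so the total and polysomal library of a culture were not paired. Between siLSM14A and siCTRL cells without HU, 0 members passed (edgeR, 0% of 12757 genes called) and 0 had an unadjusted p under 0.05 (0.87% of genes). With HU, 0 passed (0% of 12649 genes called) and 4 had an unadjusted p under 0.05, all with higher TE in siLSM14A cells (2.97% of genes were higher at this threshold). They were GEN1, BRIP1, MRE11 and FANCB, each with an edgeR adjusted p of 0.778. With the culture as a block 6 members had an unadjusted p under 0.05, all higher (3.96% of all genes), and 0 passed the adjustment.
GEN1 had log2 ratios of -0.79, -0.75 and -0.80 in siCTRL and 0.24, -0.49 and -0.37 in siLSM14A cultures, a change of 0.62 (SE 0.225, edgeR unadjusted p = 0.0145). BRIP1 had -0.60, -0.30 and -0.23 against 0.40, -0.13 and 0.10 (0.52, SE 0.207, unadjusted p = 0.024), and MRE11 -0.21, -0.72 and -0.38 against 0.16, -0.06 and -0.12 (0.43, SE 0.177, unadjusted p = 0.028). FANCB, whose ratios are given above, had a difference of 0.69 (SE 0.312, unadjusted p = 0.0439). In each of these 4 genes the groups did not overlap. These genes were picked by p in the same comparison, so the separation adds no support. How many of all genes separate this way was not counted, here or for TOP3A, EME1 and RMI1 above. The exons of GEN1, BRIP1, MRE11 and FANCB hold 39.7%, 38.0%, 38.4% and 36.8% GC. With the GC correction their differences were 0.40, 0.26, 0.20 and 0.40, and 0 of the 39 members had an unadjusted p under 0.05. Leaving out replicate 1 of siLSM14A with HU left 0 such members (1.34% of all genes). Leaving out replicate 2 gave 13, all higher (9.15% of all genes). Without replicate 2 of siCTRL with HU there were 2, all higher (0.946% of all genes). The smallest p-values for lower TE belonged to XRCC3 (-0.15, unadjusted p = 0.375), RAD54L (-0.13) and FANCG (-0.12), and the GC correction turned XRCC3 and FANCG to above 0.
For HU against NT, 0 members passed and 0 had an unadjusted p under 0.05 in siCTRL cells (edgeR, 0% of 12693 genes called, 2.31% unadjusted) and in siLSM14A cells (0% of 12660 genes called, 1.41% unadjusted). The SE of a member's TE change had a median of 0.219 and 0.23 in these 2 comparisons, so that changes of the size seen in total RNA were not detectable here. Without replicate 1 of untreated siLSM14A cells 10 members had an unadjusted p under 0.05 in siLSM14A cells, all higher with HU (8.7% of all genes), and without replicate 3 of untreated siCTRL cells 6 did in siCTRL cells, all higher (1.58% of all genes). In siCTRL cells FANCA had the highest change (0.41, SE 0.219, edgeR unadjusted p = 0.0806), with ratios of 1.17, 0.94 and 0.68 without and 1.44, 1.56 and 1.05 with HU. These groups overlap. In siLSM14A cells GEN1 had the highest (0.58, SE 0.406, edgeR unadjusted p = 0.176).
DESeq2 gave 0 adjusted calls in these 4 comparisons, and 0, 4, 0 and 0 unadjusted ones (0.784%, 3.85%, 2.21% and 1.68% of all genes). The 4 were all higher in siLSM14A cells, as were 2.73% of all genes.

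**Figure D4:**
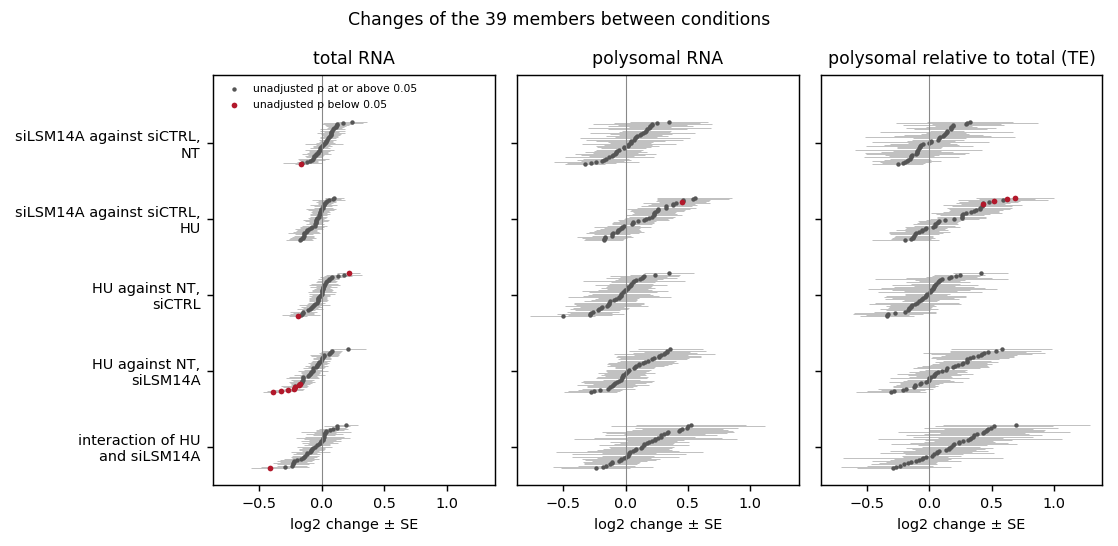
Log2 change with its standard error (x axis) of the 39 members in 5 comparisons (rows), for total RNA, polysomal RNA and TE (panels), with members at an unadjusted p under 0.05 in red and sorted by size within a row. No member passed an adjusted p under 0.05, the changes in total RNA stay between -0.41 and 0.24, and the error bars are wider in polysomal RNA and TE.

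The response to HU was last compared between siLSM14A and siCTRL cells. In total RNA 0 members passed (edgeR, 0% of 12666 genes called), and 1 had an unadjusted p under 0.05, lower (1.87% of genes). It was GEN1, at -0.41 (SE 0.154, adjusted p = 1.00), whose total RNA in siCTRL cells was 12.03, 10.1 and 11.7 CPM without and 11.3, 11.9 and 12.4 CPM with HU. In polysomal RNA 0 passed (0% of 12515 genes called) and 0 were unadjusted (1.07% of genes), and for TE 0 passed (0% of 12855 genes called) and 0 were unadjusted (1.9% of genes). DESeq2 gave 0 adjusted calls in all 3, and 1, 0 and 0 unadjusted ones (2.42%, 1.29% and 2.21% of all genes). The smallest p-values for TE belonged to DNA2 (0.47, SE 0.355, edgeR unadjusted p = 0.196), EXO1 (0.33, SE 0.262) and BARD1 (0.43, SE 0.339), the last pair with an unadjusted p of 0.219 each.

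A list of 47 other genes of these pathways was counted beside the members. In the 15 comparisons between conditions edgeR called 0 of them, and DESeq2 called 1, lower in total RNA of siLSM14A cells with HU. At an edgeR unadjusted p under 0.05, 6 (12.8%) were higher in polysomal RNA of siLSM14A against siCTRL with HU, where 3.29% of all genes were. In total RNA of siLSM14A cells 5 (10.6%) were lower with HU, against 3.59% of all genes. Each other comparison had at most 3. For polysome loading, 12 were higher (25.5%) and 21 lower (44.7%) in untreated siCTRL cells, 14 (29.8%) and 24 (51.1%) with HU, 12 (25.5%) and 23 (48.9%) in untreated siLSM14A cells, and 12 (25.5%) and 20 (42.6%) with HU. The shares of lower genes were above those of all genes given before, and the median ratio was -0.37. The difference from the members was not tested. In untreated siCTRL cells TP53BP1, which restrains resection, was higher by 1.24 (SE 0.0982), the helicase gene RECQL5 by 1.51 (SE 0.154) and TONSL, which acts at stalled forks, by 1.16 (SE 0.144). SEM1, a small partner of BRCA2, changed by -1.33 (SE 0.128), RNF168, a ubiquitin ligase of damaged chromatin, by -1.29 (SE 0.157), and PSMC3IP by -1.04 (SE 0.135). The edgeR adjusted p of these 6 was at most 0.000522.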

How the data were processed

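Total and polysomal RNA of 12 cultures of A2058 cells (4 conditions with 3 replicates each) gave 24 stranded polyA libraries. Raw read counts per Ensembl gene, without normalization, were deposited by the authors, who used TrimGalore and then STAR 2.6.1a on hg19; how reads shared between gene copies were counted is not given in the sources used here. The study's methods give the pooled heavy fractions in ways that differ, so the fractions are not stated. The labels and the methods name A2058 cells, while a figure legend of the study names another melanoma line for these data; the labels were followed. Of 20345 gene IDs, 19637 were in the Gencode 44 annotation lifted to hg19, and the 19086 protein-coding genes were analysed.

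Counts were filtered with filterByExpr (minimum count 10, minimum total 15) and scaled by TMM, and tested in R 4.3.3 with edgeR 4.0.16 (quasi-likelihood test) with Benjamini-Hochberg adjustment over all genes tested. The SE is the absolute log2 change divided by the square root of F. Each comparison used the libraries of its own groups. The main fits held no block, so the total and polysomal library of a culture were not paired for loading or TE. For TE, the interaction term between fraction and condition was tested. Log2 ratios per culture used TMM-scaled CPM with a prior count of 0.5. DESeq2 1.42.0, RLE size factors, other filters, all genes, a loess correction for GC content (span 0.3), one fit of all 24 libraries, blocks and leaving out each culture were tried. Fits without the 3 cultures whose polysomal GC slope was under -0.2, and without composition normalization, were added after the data were seen. The tests were tested on simulated data.

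The members and lists were chosen with earlier results of these data known. The text names, per comparison, members at an adjusted p under 0.05 (beyond 10, the 5 with the smallest p in each direction), otherwise up to 3 per direction by unadjusted p, and the 5 highest and 5 lowest by mean ratio; other members are given by role, and every member with an unadjusted p under 0.05 was added. Replicates are labelled cultures; p-values measure the spread between them. No pair of replicate libraries agreed within sampling noise (chi-square per gene 6.29 to 126.8). Same-numbered libraries deviated together (every r over 0.1) between siCTRL NT and siCTRL HU (r of 0.239, 0.198 and 0.169 in total RNA, at least 0.134 in polysomal RNA) and between siCTRL HU and siLSM14A HU in total RNA (0.293, 0.164 and 0.196), but not in the other comparisons of conditions.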

Additional observations from a re-analysis of the deposited data

How the results depend on the processing

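Under every alternative run, 0 members passed an adjusted p under 0.05 in the 15 comparisons between conditions. The number of members called for polysome loading ranged, when 1 culture was left out, from 10 to 29 in untreated siCTRL cells, from 22 to 27 with HU, from 11 to 25 in untreated siLSM14A cells and from 16 to 23 with HU. DESeq2 called 19, 25, 22 and 24 members where edgeR called 21, 28, 20 and 24. Of all genes DESeq2 called 7804 of 12431, 9052 of 12479, 8230 of 12528 and 8359 of 12377. Those called by edgeR were 7927, 9174, 8067 and 8272 of the same numbers. With the culture as replicate block 22, 29, 20 and 24 were called, 8 rather than 9 members being higher in all 4 conditions, and the block changed no adjusted call of a member between conditions. No share of all genes stands beside these block counts or the ranges above. They are not read as a trait of the members. Where replicate numbers did not pair the libraries, the block moved members at an unadjusted p under 0.05 from 1 to 7 in polysomal RNA (12.4% of all genes were higher) and from 4 to 8 for TE (5.59% of all genes were higher), both siLSM14A against siCTRL with HU.

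Members called for loading changed sign under the GC correction (8 were called the other way in at least 1 condition, MUS81 and XRCC3 among them). For the members named by p in each comparison, with the GC correction, XRCC3 was -0.0384 in polysomal RNA for HU in siCTRL cells (-0.0376 with the replicate block as well), 0.0664 for TE of siLSM14A against siCTRL with HU (0.0684 with the block), 0.0104 for the TE interaction (0.0153 with the block) and -0.22 for loading in untreated siLSM14A cells (-0.221 with the block). FANCG, TE: siLSM14A against siCTRL, HU was 0.0634 with the GC correction (0.0641 with the block). Without the cultures of low GC slope, XRCC3 in polysomal RNA for HU in siCTRL cells was -0.0265 and RAD54B for TE of HU in siLSM14A cells 0.0218. With 1 culture left out, XRCC3 in polysomal RNA for HU in siCTRL cells ran from -0.0265 to 0.255, MUS81 in total RNA of siLSM14A against siCTRL with HU from -0.018 to 0.104, and MUS81 in total RNA for HU in siLSM14A cells from -0.00102 to 0.146. The cause was not tested.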
